A study of Homo sapiens with 4 samples.

Results

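The 6 genes described here encode the RUNX transcription factors and the proteins they are most often studied with. RUNX1, RUNX2 and RUNX3 are the DNA-binding subunits, CBFB is their common partner subunit, RUNX1T1 is a corepressor and MYB is a blood transcription factor. They were chosen by name, as the rows of the gene table with these symbols. They make up 6 of the 58274 gene identifiers in the table, and all 6 were among the 17137 genes that reached 1 FPKM (fragments per kilobase of transcript, scaled by the mapped fragments of the library) in 1 library or more.

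The samples follow a human line of induced pluripotent stem cells (iPSCs), BC1, through hematopoietic differentiation. The first library came from undifferentiated BC1 cells. The others came from sorted cells: mesoderm with the apelin receptor (APLNR+) at day 2, hemogenic endothelial progenitors (HEPs, CD31+CD34+) at day 5, and hematopoietic progenitor cells (HPCs, CD43+) at day 8. The culture received activin A and BMP4 for 2 days and then VEGF and bFGF for 6 days, so APLNR+ cells had seen the first pair of factors only. All the cells descend from 1 cell line, and each population had 1 library, so no difference below has a replicate check and no p-value is given. The day, the culture step and the surface marker changed together along the series, and their effects cannot be told apart. In sorted bulk samples, fewer cells of a type and less RNA per cell cannot be told apart either.

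A RUNX protein binds DNA through its Runt domain, and CBFB, which does not touch DNA itself, strengthens that binding and protects the RUNX protein from breakdown. RUNX1 is required for blood cells to arise from hemogenic endothelium, RUNX2 is the master regulator of bone formation, and RUNX3 acts in T lymphocytes, sensory neurons and the stomach. RUNX1T1 (ETO) is best known from a leukemia in which its gene is fused to RUNX1, and the normal protein and its relatives recruit histone deacetylases to DNA-bound factors. MYB drives the growth of immature blood cells and is needed for definitive blood formation.

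All 3 RUNX genes are known to have a distal and a proximal promoter, and the RUNX proteins bind the core letters TGTGGT or TGCGGT. The start regions are shown because the starts that were searched differ in how many of these words they hold. The distal RUNX1 start was not among the regions searched. RefSeq windows on GRCh38.p14, from 250 bases before to 50 bases after an annotated start, were searched on both strands for these words. Neighbouring words may share 1 end letter, and each was counted. A word was found in 6879 of 35116 windows of all genes (19.6%), at least 2 in 2.32%, and at least 5 in 4 windows (0.0114%). The distal RUNX2 window was 1 of those 4, with words that began at -191, -87, 17, 25 and 33 from the first transcribed base, and the distal RUNX3 window had 2, at -131 and -123. The 250 bases before these starts are printed below from 5′ to 3′ on the strand of the gene, with the RUNX words in capitals. They are chr1:24965011-24965260 (minus strand) for RUNX3 and chr6:45328080-45328329 (plus strand) for RUNX2, and a few GENCODE transcripts of both genes begin within them.
RUNX3 distal start: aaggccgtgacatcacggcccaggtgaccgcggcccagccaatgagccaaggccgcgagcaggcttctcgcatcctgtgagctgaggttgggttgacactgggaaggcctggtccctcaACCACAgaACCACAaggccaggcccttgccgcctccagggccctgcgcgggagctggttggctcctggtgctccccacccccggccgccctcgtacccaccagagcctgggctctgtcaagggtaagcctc
RUNX2 distal start: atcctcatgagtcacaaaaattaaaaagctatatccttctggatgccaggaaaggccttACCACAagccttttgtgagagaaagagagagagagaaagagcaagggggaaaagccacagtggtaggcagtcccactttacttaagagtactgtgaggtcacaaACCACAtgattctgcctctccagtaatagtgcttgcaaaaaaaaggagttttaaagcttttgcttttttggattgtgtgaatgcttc

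The other 3 RUNX2 words lay after the start, in the first exon at chr6:45328344-45328371, which is shown in the same way. Its first 18 bases recur letter for letter in the RUNX3 sequence above, at chr1:24965126-24965143. They were in no other gene's window, but the distal RUNX1 start had no window. Both copies hold the RUNX word TGTGGT, here read as ACCACA, in 2 head-to-tail copies, 2 bases apart. This arrangement of that word was found in 4 of the 35116 windows, and pairs with TGCGGT were not counted.
RUNX2 motif cluster: caACCACAgaACCACAagTGCGGTgcaa
RUNX3 shared run: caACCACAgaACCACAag

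No RUNX word was found in the proximal windows of RUNX2 and RUNX3, in the window of MYB or in the only window of RUNX1, which is its proximal start. The bases before that start, chr21:34888700-34888949 on the minus strand, lie in an intron of the longer RUNX1 transcripts and are shown because RUNX1 is the member that changed most. The distal RUNX2 window was 42.7% G and C and the distal RUNX3 window 66.3%, against 72% in this RUNX1 window and 76% in both proximal windows of its relatives. The word of MYB, AACGG or AACTG, was in 52.4% of all windows. It was found 2 times in each proximal window of RUNX2 and RUNX3, and not in the other windows of these genes or of MYB. A word is a run of letters and not a measured binding site, and the gene-level table holds no separate values for the distal and the proximal transcripts. CBFB had no window.
RUNX1 start: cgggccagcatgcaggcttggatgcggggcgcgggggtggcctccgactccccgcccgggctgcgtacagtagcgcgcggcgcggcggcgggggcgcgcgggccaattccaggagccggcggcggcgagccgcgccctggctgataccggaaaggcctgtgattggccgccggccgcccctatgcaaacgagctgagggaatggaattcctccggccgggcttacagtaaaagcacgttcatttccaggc

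RUNX1 (ENSG00000159216.18, GRCh38 chromosome 21, 34787801 to 36004667, minus strand) was at 0.0962, 4.15, 60.1 and 137 FPKM in iPSCs, mesoderm, HEPs and HPCs. It was higher in each population than in the one before it. The BC1 value stands for about 3 fragments, which is the floor used here, with a 95% counting interval of 0.0236 to 0.334 FPKM. The other intervals were 3.45 to 4.99, 57.4 to 62.9 and 133 to 142 FPKM, so none of the 4 intervals overlapped. In rank among the 17137 genes, RUNX1 moved from above 5.19% of them in iPSCs to above 41.3% in mesoderm, 90.1% in HEPs and 96.2% in HPCs.

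The steps of RUNX1 became smaller in fold but not in FPKM. The ratio was 43.2 from BC1 to APLNR+ (95% counting interval 12.2 to 179), 14.5 from APLNR+ to CD31+CD34+ (11.98 to 17.5) and 2.29 from CD31+CD34+ to CD43+ (2.16 to 2.42). These intervals were exact, came from the fragments estimated for each library, and cover counting error only. On the log2(FPKM + 1) scale, which understates the change of low genes, the 3 differences were 2.23, 3.57 and 1.18. The second was the 188th largest rise of all genes tested at that transition. From BC1 to CD43+ the difference was 6.98, the 32nd largest, and the ratio was 1429 with an interval of 411 to 5830.3. RUNX1 has 9 annotated coding transcripts of 346 to 7274 bases, and with the longest in place of the median length the BC1 value stands for 13 fragments and that interval becomes 854 to 2744.

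RUNX3 (ENSG00000020633.18, chromosome 1, 24899511 to 24965121, minus strand) was highest in mesoderm. It was at 1.17, 12.1, 8.12 and 4.18 FPKM in iPSCs, mesoderm, HEPs and HPCs. It rose 10.4-fold into APLNR+ (interval 8.28 to 13.2, difference of 2.60 on the log2 scale). It was then 1.49-fold lower in CD31+CD34+ (1.35 to 1.65) and a further 1.94-fold lower in CD43+ (1.7 to 2.22), and neither step passed the threshold of 1 on the log2(FPKM + 1) scale that is used here for rose and fell. CD43+ was still 3.58-fold above BC1 (2.8 to 4.6). In order of level the populations were BC1, CD43+, CD31+CD34+ and APLNR+, and each neighbour differed from the next by more than its counting interval.

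RUNX2 (ENSG00000124813.20, chromosome 6, 45328157 to 45664349, plus strand) was the lowest of the 3 in every population after BC1. It was at 0.735, 0.155, 1.61 and 0.102 FPKM in iPSCs, mesoderm, HEPs and HPCs, so that CD31+CD34+ was the only population above 1 FPKM. It rose 10.4-fold into HEPs (interval 5.71 to 20.4, log2 difference 1.18) and fell 15.8-fold from there to CD43+ (7.61 to 36.5, log2 difference -1.25). Its difference from BC1 to APLNR+ was -0.59 on the log2 scale, below the threshold, while the ratio was 4.75-fold lower (2.49 to 9.72). The levels of CD43+ and APLNR+ were not distinguishable at this depth, with a ratio of 1.52 and an interval of 0.563 to 4.23. SUPT3H lies across the RUNX2 locus on the opposite strand but shares no exonic base with it, and RUNX2-AS1 was at 0 in all 4 libraries.

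**Figure D1:**
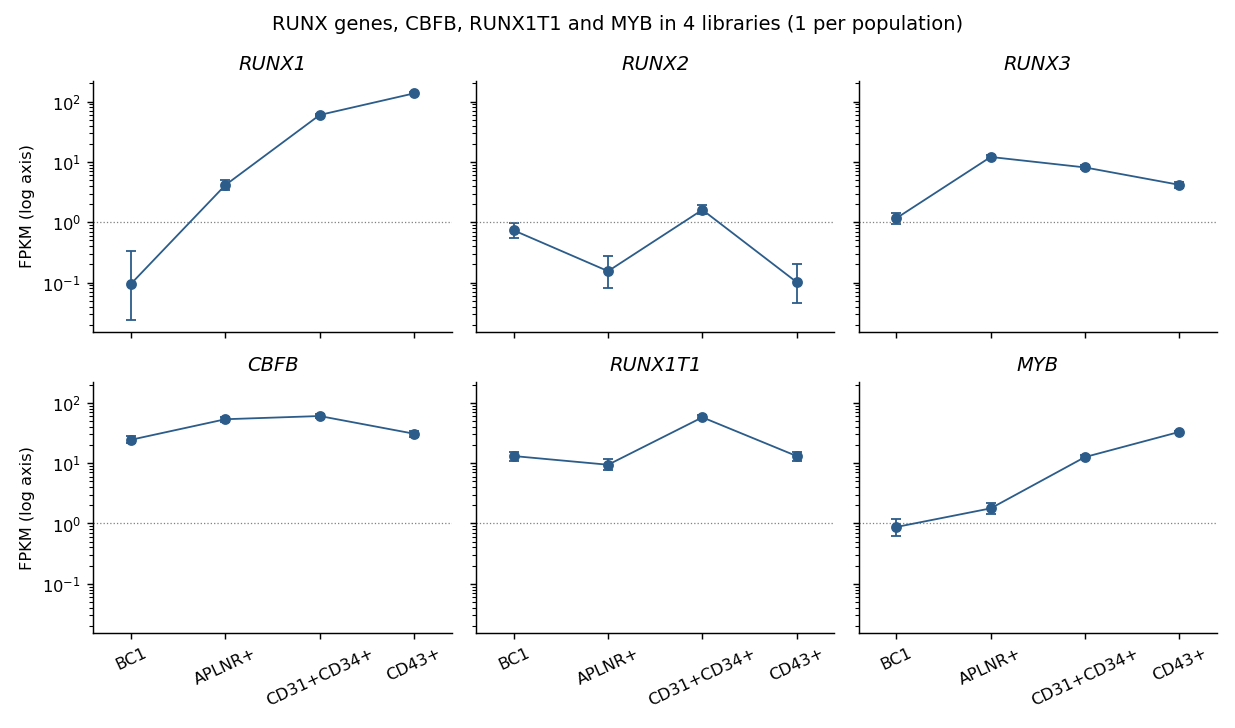
FPKM (log axis) of the 6 genes in the 4 libraries, in order of differentiation, with bars for the 95% interval from counting error and a dotted line at 1 FPKM. RUNX1 and MYB were highest in CD43+, at 137 and 32.9 FPKM, RUNX2, CBFB and RUNX1T1 in CD31+CD34+, and RUNX3 in APLNR+.

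Per length, the dominant RUNX gene switched from RUNX3 to RUNX1 between mesoderm and HEPs. RUNX3 made up 58.4% of the summed FPKM of the 3 genes in iPSCs and 73.8% in mesoderm, but 11.6% in HEPs and 2.95% in HPCs. RUNX1 made up 4.81%, 25.3%, 86.1% and 96.98% in the same order. The level of RUNX3 was 2.92 times that of RUNX1 in APLNR+, and RUNX1 was 7.4 times RUNX3 in CD31+CD34+ and 32.9 times in CD43+. The RUNX2 share was 36.8% in BC1, where the whole family summed to only 1.999 FPKM, and at most 2.31% elsewhere.

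CBFB (ENSG00000067955.13, chromosome 16, 67029116 to 67101058, plus strand) changed least of the 6 in fold. It was at 24.4, 53.4, 60.3 and 30.7 FPKM in iPSCs, mesoderm, HEPs and HPCs, and the highest level was 2.47 times the lowest. It rose 2.19-fold into APLNR+ (interval 1.87 to 2.58, log2 difference 1.10). The ratio of CD31+CD34+ to APLNR+ was 1.13, with an interval that began at 1.003, and CD43+ was 1.96-fold below CD31+CD34+ (1.71 to 2.27), a log2 difference of -0.95 that did not pass the threshold as deposited but did with the values scaled to TPM (-1.08). The net ratio from BC1 to CD43+ was 1.26 (1.05 to 1.51). CBFB was thus already above 78.1% of genes in undifferentiated cells, in which RUNX1 was near the floor.

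The balance of CBFB to its RUNX partners inverted along the series. The summed RUNX level was 1.999, 16.4, 69.8 and 142 FPKM in iPSCs, mesoderm, HEPs and HPCs. The CBFB level was 12.2 times this sum in iPSCs, 3.25 times in mesoderm, 0.863 times in HEPs and 0.217 times in HPCs. In the HPC library the RUNX sum was therefore 4.62 times the CBFB level. These are ratios of RNA levels per length, not of proteins.

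**Figure D2:**
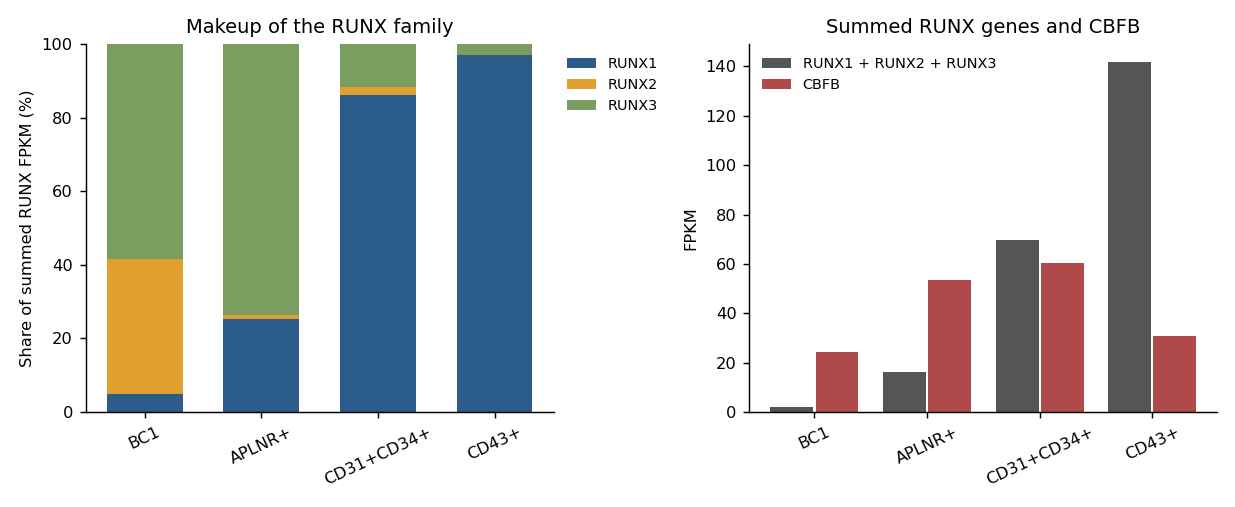
Left, the share (%) of the summed RUNX FPKM that came from RUNX1, RUNX2 and RUNX3 in each of the 4 libraries. Right, the summed RUNX FPKM and the CBFB FPKM as bars, 1 library each without error bars: CBFB is the taller bar in BC1 and APLNR+, and the RUNX sum of 142 FPKM stands above the 30.7 FPKM of CBFB in CD43+.

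RUNX1T1 (ENSG00000079102.16, chromosome 8, 91954967 to 92103286, minus strand) peaked in hemogenic endothelium. It was at 13.1, 9.4, 57.4 and 13.1 FPKM in iPSCs, mesoderm, HEPs and HPCs. It rose 6.11-fold from APLNR+ to CD31+CD34+ (interval 4.93 to 7.61, log2 difference 2.49) and fell 4.39-fold at the next transition (3.64 to 5.32, log2 difference -2.05). CD43+ and BC1 were not distinguishable, with a ratio of 1.002 and an interval of 0.776 to 1.28. Its 34 coding transcripts run from 491 to 7687 bases, so its fragment numbers, too, are approximate. The level of RUNX1T1 was 136 times that of RUNX1 in iPSCs, 2.27 times in mesoderm and 0.955 times in HEPs, and in HPCs RUNX1 was 10.5 times RUNX1T1. The ratio in iPSCs is uncertain, because RUNX1 was there at the floor of about 3 fragments.

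The largest member of the ETO family changed at both later transitions, while RUNX1T1 and CBFA2T2 were about level in BC1. CBFA2T2, a broadly expressed relative, was at 12.1, 26.8, 47.6 and 29.3 FPKM in the order of differentiation. CBFA2T3 (ETO2), a corepressor of the TAL1 and GATA complexes in red cell and megakaryocyte precursors, was at 1.68, 0.375, 42.8 and 153 FPKM, with a 3.58-fold rise from HEPs to HPCs (interval 3.16 to 4.07). In BC1 RUNX1T1 held 48.7% of the family sum and CBFA2T2 45.02%. The CBFA2T2 level there lay inside the counting interval of RUNX1T1, 10.9 to 15.5 FPKM. CBFA2T2 was the largest of the 3 in APLNR+ with 73.3%, RUNX1T1 in CD31+CD34+ with 38.8%, and CBFA2T3 in CD43+ with 78.3%. The family sum was 26.9, 36.6, 148 and 196 FPKM, so the total was highest in the library in which RUNX1T1 held only 6.68% of it.

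MYB (ENSG00000118513.18, chromosome 6, 135181315 to 135219173, plus strand) was higher in each population than in the one before, as RUNX1 was. It was at 0.874, 1.78, 12.6 and 32.9 FPKM in iPSCs, mesoderm, HEPs and HPCs. The ratio from BC1 to APLNR+ was 2.03 (interval 1.38 to 2.99), but the log2 difference of 0.57 was below the threshold. MYB then rose 7.08-fold (5.69 to 8.94, log2 difference 2.29) and 2.61-fold (2.39 to 2.86, log2 difference 1.32), and the net ratio was 37.7 (27.4 to 52.3). RUNX1 was 2.34 times MYB in mesoderm, 4.77 times in HEPs and 4.18 times in HPCs. MYB-AS1, an antisense RNA that shares 103 exonic bases with MYB, was at 0.496 FPKM in CD31+CD34+ and at 0 in the other libraries.

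Within the MYB family, MYBL2, which drives cell cycle genes in dividing cells, led up to HEPs and was close to MYB in HPCs. MYBL2 was at 63.6 FPKM in iPSCs, at 79.8 and 99.3 FPKM in mesoderm and HEPs, and fell to 29.9 FPKM in HPCs (3.32-fold lower, log2 difference -1.70). Its share of the family sum was 96.96% in iPSCs, 96.1% in mesoderm, 87.5% in HEPs and 47.1% in HPCs, where MYB held 51.8%. MYBL1, the relative of the germ line, did not pass 1.56 FPKM in any library.

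**Figure D3:**
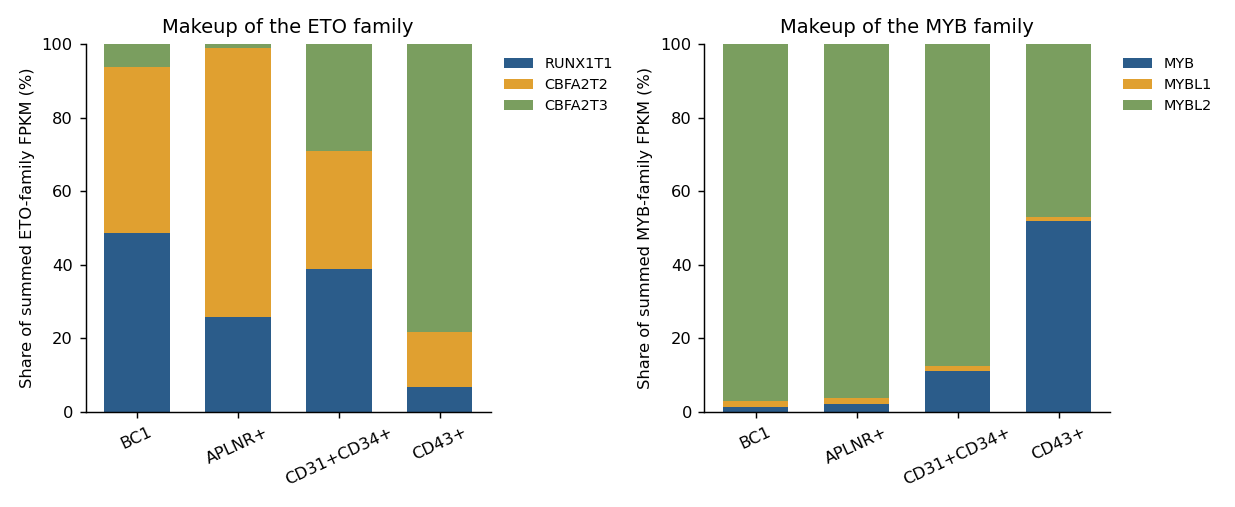
Share (%) of the summed FPKM that came from each gene of the ETO family (left) and of the MYB family (right) in each of the 4 libraries. CBFA2T3 takes 78.3% of the ETO family and MYB 51.8% of the MYB family in CD43+, against 6.25% and 1.33% in BC1.

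Counted by transition, 3 of the 6 genes (RUNX1, RUNX3, CBFB) rose by at least 1 between iPSCs and mesoderm and 0 fell, while 9.15% of all genes rose and 9.32% fell. From mesoderm to HEPs, RUNX1, RUNX2, RUNX1T1 and MYB rose and 0 fell, against 13.01% and 11.4% of all genes. From HEPs to HPCs, RUNX1 and MYB rose while RUNX2 and RUNX1T1 fell, against 7.63% and 13.5% of all genes, and with the values scaled to TPM CBFB also fell. Over the whole series RUNX1, RUNX3 and MYB rose and 0 fell, against 15.2% and 18.9%. The median difference of the 6 genes was 0.83, 1.73 and -0.89 at the consecutive transitions and 0.79 over the series. That of all genes was 0.00, 0.01, -0.08 and -0.06. RUNX1 was the only member that passed the threshold at every transition, and with a pseudocount of 0.1 in place of 1 RUNX2 did so too.

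Most of the transcription factors that act beside RUNX1 on blood genes rose after mesoderm. All 14 listed genes passed the filter, 5 rose into mesoderm, 10 into HEPs and 8 into HPCs, and their median differences were 0.51, 3.30 and 1.09. Among all genes 9.15%, 13.01% and 7.63% rose at these transitions, and 13.5% fell at the last. In APLNR+ the leading genes were GATA2, a factor of early blood progenitors, which rose from 0.125 to 32.03 FPKM, and LYL1, a partner of LMO2 and GATA factors, from 0.411 to 7.16 FPKM, 17.4-fold (interval 8.18 to 39.1). FLI1, an ETS factor of endothelium and megakaryocytes, then rose from 2.95 to 316 FPKM, 107-fold (94.1 to 123), and LMO2, the bridging subunit of the TAL1 complex, from 0.459 to 107 FPKM. GATA1, the erythroid and megakaryocyte factor, was at 0 in iPSCs and mesoderm and rose from 13.4 FPKM in HEPs to 189.8 FPKM in HPCs, 14.2-fold (12.7 to 15.9), and IKZF1 (Ikaros) rose from 2.31 to 18.8 FPKM. The 2 that fell at this transition were ERG, from 75.1 to 5.68 FPKM (13.2-fold lower), and ETS1, from 110.1 to 52.99 FPKM, both ETS factors of endothelium. ETS1 was just past the threshold (-1.04), and under median ratio scaling 1 listed gene fell in place of 2. CEBPA, the granulocyte factor, stood at 2.58 FPKM or less in all 4 libraries.

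Markers of the cell types changed over the same transitions. The summed FPKM of 8 endothelial markers was 75.8 in mesoderm, 1381 in HEPs and 338 in HPCs, and that of 9 hematopoietic markers was 13.6, 335 and 7049. Most of the last sum was the globin gene HBE1, at 5271 FPKM in HPCs. All 8 endothelial markers rose into HEPs and 5 fell at the next transition, while 7 hematopoietic markers rose there and PTPRC, the gene of CD45, stayed at 0.0349 FPKM or less. Among all genes 13.01% rose into HEPs, and 7.63% rose and 13.5% fell into HPCs. GATA1, GFI1B, ITGA2B and KLF1 are among these markers and also in the lists below or above. The 6 pluripotency markers summed to 3033, 895, 148 and 116 FPKM in the order of differentiation, with SOX2 at 0 in the last pair, and the 6 mesoderm markers to 2.52, 2218, 217 and 26.8 FPKM. In the APLNR+ library, 1073 FPKM of the mesoderm sum was APLNR. APLNR, PECAM1 (CD31) and SPN (CD43) encode proteins that the cells were sorted on. Their rises into the libraries sorted for them are therefore not independent of the sort. The part of cell type makeup in the changes of RUNX1 and its partners was not tested.

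Among genes described elsewhere as RUNX1 targets, rises and falls were equal in number at the mesoderm step, and more genes rose than fell at both later steps. Of 20 listed genes 16 passed the filter. At the mesoderm step 3 rose and 3 fell, against 9.15% and 9.32% of all genes. Into HEPs 8 rose and 0 fell (all genes 13.01% and 11.4%), and into HPCs 9 rose and 3 fell (all genes 7.63% and 13.5%). The medians were 0.15, 0.75 and 1.62. GFI1 and GFI1B, repressors of the endothelial program during blood emergence, rose together into CD31+CD34+, from 0.0958 to 27.9 FPKM and from 0.0338 to 35.9 FPKM. At the next transition they parted, as GFI1 fell to 3.63 FPKM, 7.68-fold lower, and GFI1B rose to 188 FPKM, 5.23-fold higher (interval 4.92 to 5.56). The 2 largest rises into CD43+ were of platelet genes. PF4 (platelet factor 4), which fell from 1.76 FPKM in iPSCs to 0 in mesoderm, rose from 14.4 to 1674 FPKM (116-fold, 96.5 to 142), and ALOX12 (platelet lipoxygenase) from 1.42 to 46.4 FPKM. Next came NFE2, from 12.6 to 235 FPKM, and ITGA2B (integrin alpha IIb, CD41), from 60.9 to 982 FPKM.

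Other described targets took other courses. MYH10, a nonmuscle myosin gene known to be repressed by RUNX1 in megakaryocytes, was at 65.98, 68.8, 50.6 and 16.2 FPKM and fell at the last transition. ANPEP (CD13) rose from 1.65 to 31.8 FPKM in APLNR+ and fell from 21.5 to 3.39 FPKM in CD43+. PRKCQ, a protein kinase C of T cells and platelets, fell from 5.98 to 1.82 FPKM in APLNR+ and was at 19.6 FPKM in CD43+. The myeloid and T cell genes CSF2, IL3 and ELANE were at 0 in all 4 libraries and MPO (myeloperoxidase) was at 0.079 FPKM or less. RUNX3, itself in this list, was described above.

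The cofactors that RUNX proteins recruit had medians close to those of all genes. All 24 passed the filter, with 4, 1 and 1 that rose and 0, 3 and 3 that fell at the 3 transitions and medians of -0.03, -0.05 and -0.14. Of all genes, 9.15%, 13.01% and 7.63% rose and 9.32%, 11.4% and 13.5% fell at these transitions. EP300, a histone acetyltransferase, stayed between 22.6 and 27.99 FPKM, and SIN3A, a deacetylase scaffold, between 21.8 and 26.7 FPKM. Apart from the ETO relatives above, most genes that moved were of the TLE and YAP families. TLE3, a Groucho-type corepressor, was at 14.4, 98.2, 25.8 and 15.6 FPKM, so it rose in mesoderm and fell in HEPs, where TLE1 fell from 32.7 to 6.43 FPKM. WWTR1 (TAZ) rose from 8.04 to 31.2 FPKM in mesoderm. From HEPs to HPCs TLE2 fell from 35.5 to 1.9 FPKM, WWTR1 from 42.5 to 1.63 FPKM and YAP1 from 19.8 to 2.15 FPKM, the last pair being coactivators of the Hippo pathway that bind RUNX proteins.

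Of the 12 proteins that modify RUNX proteins or mark them for breakdown, 4 rose into APLNR+ with a median of 0.76, 1 rose and 1 fell into CD31+CD34+ (median -0.29), and 1 rose and 4 fell into CD43+ (median -0.32). The shares of all genes were 9.15%, 13.01% and 7.63% for rises and 9.32%, 11.4% and 13.5% for falls. The tyrosine kinase SRC rose from 17.3 to 104 FPKM and CDK6, a cell cycle kinase that binds RUNX1, from 2.87 to 13.4 FPKM at the first transition. HIPK2, a kinase that phosphorylates RUNX1 and EP300, rose from 15.9 to 103 FPKM in CD43+, 6.45-fold (interval 6.1 to 6.84). The ubiquitin ligase gene SMURF2 rose from 5.25 to 15.5 FPKM in CD31+CD34+ and fell to 4.19 FPKM in CD43+. SKP2 fell from 59.8 to 25.05 FPKM at the second transition, and CDC20, an activator of the anaphase-promoting complex, from 95.7 to 40.5 FPKM at the last.

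Genes described as MYB targets showed no common direction. Of 16 listed genes 12 passed the filter, 3, 4 and 3 rose and 1, 2 and 4 fell at the 3 transitions, and the medians were 0.26, 0.22 and 0.05. For all genes the shares were 9.15%, 13.01% and 7.63% that rose and 9.32%, 11.4% and 13.5% that fell. KLF1, the erythroid factor, rose from 0.19 to 7.39 FPKM in APLNR+ and from 17.9 to 68.7 FPKM in CD43+. CD34 rose from 0.645 to 102 FPKM in the library sorted for its protein. KIT, the stem cell factor receptor, fell from 5.54 to 1.59 FPKM in mesoderm and was at 7.79 FPKM in HEPs. GATA3 rose from 0.431 to 30.01 FPKM in APLNR+ and fell from 40.1 to 2.8 FPKM in CD43+, and BCL11A, the repressor of fetal globin, fell from 8.93 to 0.864 FPKM in CD31+CD34+ and rose to 4.22 FPKM. CCNE1 (cyclin E) fell from 18.2 to 6.28 FPKM in CD31+CD34+, and CEBPB from 31.8 to 12.2 FPKM in CD43+. BCL2 and CXCR4 stayed below 1 FPKM. Among the 10 genes of the MYB family and its MuvB partners, 0 rose at the 3 transitions (medians 0.23, -0.16 and 0.18). Besides MYBL2, MYBBP1A, which binds MYB, fell from 42.4 to 9.68 FPKM in CD31+CD34+.

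**Figure D4:**
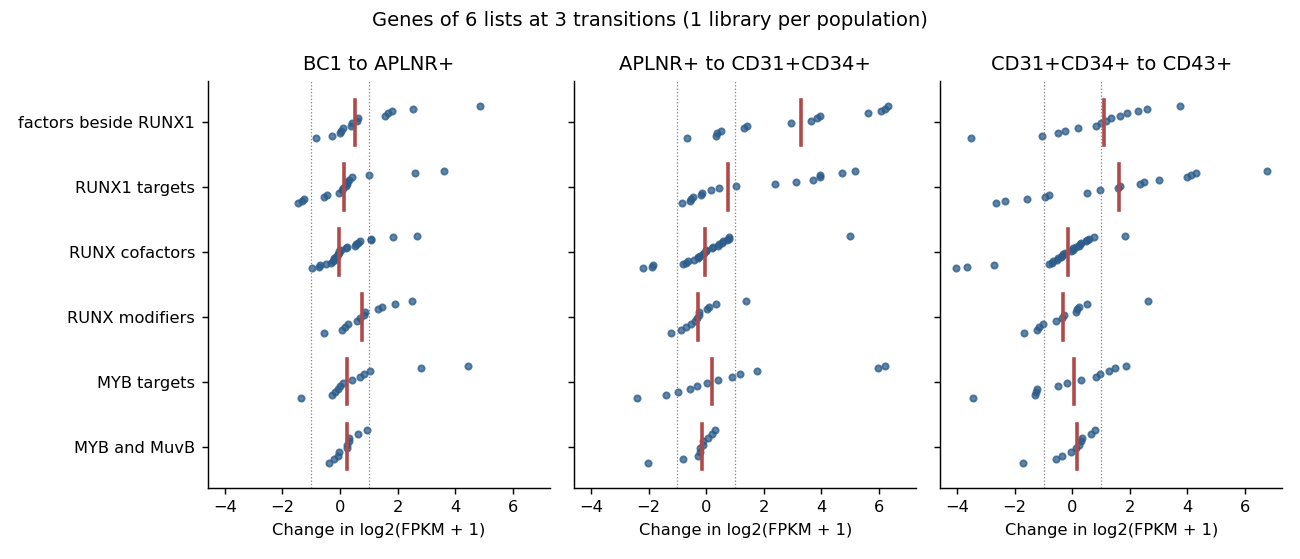
Difference in log2(FPKM + 1) of each gene that passed the filter (points) at the 3 consecutive transitions, for 6 lists of genes linked to RUNX1 or MYB, with red bars at the list medians and dotted lines at -1 and 1. The factors beside RUNX1 lie farthest to the right from APLNR+ to CD31+CD34+, with a median of 3.30, and the cofactor list stays centred near 0.

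Several bone and lymphocyte genes known from RUNX2 and RUNX3 were near or below 1 FPKM. Of 10 RUNX2 targets 7 passed the filter, 0, 2 and 1 rose and 1, 2 and 3 fell, and the medians were 0.03, -0.21 and -0.83. By comparison, 9.15%, 13.01% and 7.63% of all genes rose and 9.32%, 11.4% and 13.5% fell. SP7 (osterix), the factor that acts after RUNX2 in osteoblasts, was at 0.131, 0.155, 9.19 and 0.72 FPKM, and rose 59.4-fold into HEPs (interval 26.6 to 138). COL1A1 (type I collagen) was at 26.05, 22.9, 184 and 27.7 FPKM and rose 8.02-fold into HEPs (7.62 to 8.44). Both rose and then fell at the transitions at which RUNX2 did. IBSP and BGLAP, markers of mature osteoblasts, were at 1.29 FPKM or less, MMP13 was at 0, ALPL fell from 178 FPKM in BC1 to 77.7 and then 6.14 FPKM, SPP1 fell from 2.99 to 0.983 FPKM in CD31+CD34+, and VEGFA rose from 23.3 to 94.9 FPKM in CD43+. The 7 bone and cartilage markers summed to 186, 83.1, 18.8 and 2.003 FPKM, most of it ALPL in the first pair. Of 10 RUNX3 targets of lymphocytes 4 passed, with medians of 0.33, 0.44 and 0.69, and SPI1 was the only gene that rose at a transition, from 1.12 to 32.04 and then 104 FPKM. ZBTB7B was at 17.4, 21.7, 41.5 and 57.1 FPKM and ITGAE at 21.1, 27.4, 20.7 and 19.6 FPKM, while ITGAL reached 1.25 FPKM in CD43+. CD8A, CD8B, PRF1, GZMB, IFNG and TBX21 were below 1 FPKM throughout, and the 6 T lymphoid markers summed to 5.06 FPKM at most.

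The genes of most similar profile were searched among the 9430 genes that reached 10 FPKM anywhere, by the root mean squared difference of centred log2(FPKM + 1) over the 4 libraries. LYL1 was nearest to RUNX1, with a difference of 0.16 and levels of 0.411, 7.16, 102 and 231 FPKM, followed by NRGN (0.35) and RASGRP3 (0.56). Among the genes nearest to MYB were BAALC (0.15) and TBXAS1, thromboxane synthase (0.17), and BAALC was at 0.836, 1.22, 8.98 and 25.8 FPKM. RUNX1T1 was nearest to CPNE2 (0.14), RGL1 and TNFRSF10C (0.15 each), and CPNE2 was at 12.1, 6.59, 50.5 and 12 FPKM. MAN1A1 and IER5 (0.07 each) and TNRC18 (0.14) were nearest to RUNX3, and ARF1, INPP5E (0.05 each) and AP1M1 (0.06) to CBFB. PHACTR2 (0.06), LUZP1 (0.08) and ARHGAP5 (0.10) were nearest to RUNX2, but at higher levels, from 5.84 to 23.8 FPKM. With a pseudocount of 0.1 in place of 1, of each set of 3 genes 2 were found again for RUNX1, RUNX3 and RUNX1T1, 1 for CBFB and MYB, and 0 for RUNX2.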

How the data were processed

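Total RNA of each population was made into a sequencing library with a TruSeq RNA kit. The authors deposited gene-level FPKM values in 1 table of 58365 rows for 58274 gene identifiers, and the rows of 90 identifiers that stood on several rows were summed. The submitters' processing notes list BWA, Bowtie, RSEM and hg19 without roles or versions. The loci in the table instead equal those of GENCODE release 29 on GRCh38 (same version and position for 55645 identifiers), so GRCh38 positions are given, counted from 1. Whether strand was used is not given in the sources used here. The unit was taken from the study's plots and from the values, since the table itself does not name it.

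Genes that reached 1 FPKM in 1 library or more were kept, values were compared as log2(FPKM + 1), and a difference of at least 1 was called a rise or fall. With 1 library per population no test was run. Depth was recovered from 7668 genes with 1 transcript, whose low values move in steps of 1 fragment, with 84.3% to 86.4% of these values within 0.1 of a whole number, and was 19700000, 21500000, 23600000 and 21600000 mapped fragments in iPSCs, mesoderm, HEPs and HPCs. The depth steps and the intervals were tested on simulated data. Fragments of a gene were estimated from the median length of its coding transcripts, and folds have Clopper-Pearson 95% intervals, which cover counting error only. A value of at most 3 fragments is the floor. Of 50-base runs in the members' transcripts, at most 1.84% (MYB) recur in other genes, and the longest run shared by any pair of RUNX genes was 41 bases. Python 3.11.15, numpy 2.4.6, pandas 2.3.3 and scipy 1.17.1 were used.

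The members, the gene lists and the thresholds were chosen with earlier results of these data known. The lists came from general knowledge, and some share genes (LMO2, SPI1, MPO, ELANE, EP300, CREBBP). The text names all members, from each list the 2 largest rises and falls past the threshold at each transition, and the 3 genes of most similar profile, of which 1 is not reported here. YAP1, ITGA2B, NFE2, MYH10, BGLAP, EP300, SIN3A, CEBPA, ZBTB7B, ITGAE, ITGAL, HBE1, APLNR, PECAM1, SPN and the genes near 0 were named after their values were seen. Alternatives were a pseudocount of 0.1, a threshold of 2, other filters, scaling to TPM and by the median ratio, the highest row of an identifier and the longest transcript.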

Additional observations from a re-analysis of the deposited data

How the results depend on the processing

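Median ratio scaling and leaving out the filter kept all 8 counts of members that rose or fell. TPM scaling kept 7 of them, and 3 members in place of 2 fell from CD31+CD34+ to CD43+, as CBFB passed the threshold with -1.08. With a pseudocount of 0.1, the number of members that fell was 1 in place of 0 both from BC1 to APLNR+ and from BC1 to CD43+, and the gene was RUNX2. With a threshold of 2, the members that rose from CD31+CD34+ to CD43+ became 0 and those that fell became 1. The members that rose then numbered 2 from BC1 to APLNR+, 3 from APLNR+ to CD31+CD34+ and 2 from BC1 to CD43+. With a filter of 5 FPKM, RUNX2 was no longer tested. The number that rose from APLNR+ to CD31+CD34+ was then 3, and the number that fell from CD31+CD34+ to CD43+ was 1. Shares of all genes at these other settings are not given, so these counts have no background beside them. Among single members, RUNX1 from BC1 to APLNR+ was 2.23 in the main setting, 2.74 under TPM scaling and 4.44 with the pseudocount of 0.1. RUNX2 from CD31+CD34+ to CD43+ was -1.25, -1.66 and -3.08 in the same order. RUNX1 from CD31+CD34+ to CD43+ was 1.18, against 1.07 under TPM scaling and 1.28 under median ratio scaling. No difference past the threshold changed sign. The cause of these shifts was not tested. The median of all genes from CD31+CD34+ to CD43+ was -0.08, and -0.17 under TPM scaling. With a threshold of 2 many list counts were lower. For example, 3 in place of 8 of the factors beside RUNX1 rose from CD31+CD34+ to CD43+. No paired analysis was possible because each population had 1 library. Depth limits RUNX1 in BC1 and RUNX2 in APLNR+ and CD43+, and the variation between cultures or sorts is unknown.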
